A study of Mus musculus with 9 samples.

Results

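Dmrta2 and 7 further genes known chiefly from the developing forebrain were followed library by library in RNAseq of the mouse mediobasal hypothalamus (MBH), where the arcuate nucleus and its feeding circuits lie. The genes were Dmrta2, Emx1, Emx2, Neurod2, Neurod6, Bhlhe22, Tbr1 and Slc17a7, taken by their symbols, and they are 8 of 35975 genes quantified. They were selected on measured Emul against CTRL values of these same libraries, so their differences between the groups are given as a description, with no test. Wild-type C57Bl/6 male offspring were taken at weaning, on P21, from dams that drank water (CTRL) or water with 1% carboxymethylcellulose (CMC) and 1% polysorbate 80 (P80; Emul) from before mating until weaning. CMC and P80 are emulsifiers added to processed food. The data comprise 4 libraries of CTRL and 5 of Emul offspring, each from a litter of its own by the study's methods. All pups had the same genotype and stayed with their dams until weaning, so exposure in gestation and exposure in lactation cannot be told apart. The study asked how the maternal treatment bears on the offspring's hypothalamus.

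Dmrta2 encodes a transcription factor with a DM domain, the DNA-binding fold of the doublesex family, and is known for its role in medial progenitors of the embryonic cortex. Emx1 and Emx2 are homeodomain factors of the cortical primordium. Neurod2, Neurod6 and Bhlhe22 are basic helix-loop-helix (bHLH) factors of neurons that have left the cell cycle, and Tbr1 is a T-box factor of early-born cortical excitatory neurons. Slc17a7 encodes VGLUT1, which loads glutamate into synaptic vesicles, mostly in cortex and hippocampus, while most glutamatergic neurons of hypothalamus and thalamus use VGLUT2, encoded by Slc17a6.

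The promoters of Dmrta2, Neurod2 and Tbr1 are shown because Dmrta2 and Neurod2 varied together across the libraries and Tbr1 ran opposite to Neurod2. Each is the 250 bases before the gene start in RefSeq on GRCm38.p6, printed 5′ to 3′ on the strand of the gene, and 7 of the 8 genes had an entry, Bhlhe22 being the one without. Capitals mark a match on either strand to 1 of 3 motifs, which do not overlap each other here: CAGATG, an E-box of the kind bHLH factors bind, TAATTA, a homeodomain core, and AGGTGTGA, a T-box half-site. The Dmrta2 promoter lies at chr4:109977775-109978024 on the plus strand and the Neurod2 promoter at chr11:98329646-98329895 on the minus strand. The Tbr1 promoter lies at chr2:61804203-61804452 on the plus strand, within the noncoding transcript Tbr1-204.
Dmrta2: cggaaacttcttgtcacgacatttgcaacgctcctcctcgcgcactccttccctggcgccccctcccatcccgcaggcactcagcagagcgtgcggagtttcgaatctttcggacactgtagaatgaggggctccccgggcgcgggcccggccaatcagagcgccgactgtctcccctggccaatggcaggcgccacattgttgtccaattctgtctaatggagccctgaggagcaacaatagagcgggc
Neurod2: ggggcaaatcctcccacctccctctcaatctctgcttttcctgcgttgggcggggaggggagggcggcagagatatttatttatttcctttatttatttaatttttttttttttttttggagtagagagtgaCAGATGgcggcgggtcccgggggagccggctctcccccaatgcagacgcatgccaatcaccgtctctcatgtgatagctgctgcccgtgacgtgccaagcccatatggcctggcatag
Tbr1: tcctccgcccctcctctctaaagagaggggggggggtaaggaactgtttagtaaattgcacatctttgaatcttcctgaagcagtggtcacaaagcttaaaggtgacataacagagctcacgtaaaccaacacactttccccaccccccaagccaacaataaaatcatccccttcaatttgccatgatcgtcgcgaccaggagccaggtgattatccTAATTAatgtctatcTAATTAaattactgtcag
The Dmrta2 window held none of the 3 motifs. The Neurod2 window held 1 CAGATG, which begins 118 bases before the start, and the Tbr1 window held TAATTA starting 33 and 18 bases before it. Over 32851 promoters of this length, 14.4% held CAGATG or its reverse complement, 4.84% held TAATTA and 1.12% held AGGTGTGA, and a match is no more than a description. The Dmrta2 window had a GC content of 61.6%, against a median of 52.4% over all promoters, and 24.3% of promoters were at or above it. The Emx1, Emx2, Neurod6 and Slc17a7 windows held no match.

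Total estimated counts ran from 28245360 in CTRL 3 to 46067534 in Emul 4, and 15340 genes passed the filter of a CPM (estimated counts scaled to the same library total) above 1 in at least 4 of them. Of the 8 genes, 7 passed and Emx1 did not. The share of counts from mitochondrially encoded genes was 4.51% to 5.52% in CTRL and 5.71% to 6.75% in Emul, without overlap, and CTRL 3, which stands apart for several of the genes, had both the lowest total and the lowest mitochondrial share. Whether either moved the values below was not tested.

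On the TPM scale, which is per transcript length and so allows levels to be compared between genes, all 8 were low. Their median TPM over the 9 libraries was 4.65 for Bhlhe22, 3.37 for Tbr1, 2.26 for Neurod6, 2.09 for Dmrta2, 1.79 for Emx2, 1.16 for Neurod2, 0.826 for Slc17a7 and 0.143 for Emx1. The place of Tbr1 rests on the short noncoding transcript Tbr1-203, with 1.74 to 3.49 TPM, as the coding Tbr1-201 had 0.223 to 1.87 TPM. The ranges of all neighbours in this order overlapped, with the exception of Slc17a7 and Emx1. Emx2 nevertheless lay above Neurod2 in 9 of 9 libraries, while Neurod6 lay above Dmrta2 in 5 of 9. For comparison, Slc17a6 had a median of 159 TPM. These levels do not bear out a telencephalic label: Emx1, whose expression is largely limited to the cortex, was at or near 0, and the other 7 were low. Some genes of the list of cortical excitatory neurons, such as Camk2a with a median of 197 TPM, were abundant, but Camk2a is not limited to cortex. The genes are therefore called by their names here.

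**Figure D1:**
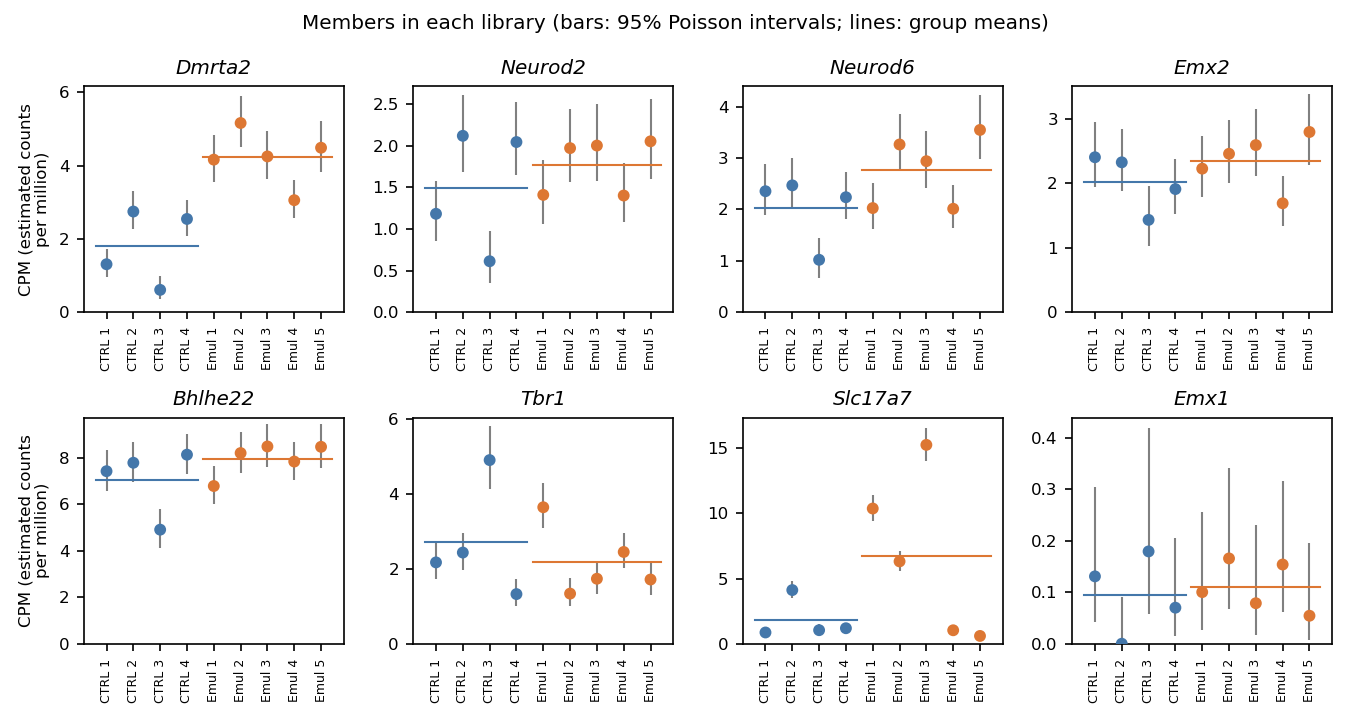
Each panel plots the CPM of 1 gene in the 4 CTRL (blue) and 5 Emul (orange) libraries, with exact Poisson 95% intervals as bars and the group means as lines; the vertical scales start at 0 and differ between panels. Dmrta2 separates the groups, from 0.610 to 2.75 in CTRL and from 3.05 to 5.16 in Emul, while the other 7 genes overlap between groups.

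Dmrta2 was higher in every Emul library than in any CTRL library. Its gene lies at chr4:109978053-109983687 on the plus strand of mm10 and has 1 transcript among those quantified. It had 50, 112, 17 and 109 counts in CTRL 1 to CTRL 4 and 166, 218, 162, 139 and 165 in Emul 1 to Emul 5. These counts amount to 1.31, 2.75, 0.610 and 2.54 CPM in CTRL and 4.16, 5.16, 4.25, 3.05 and 4.49 CPM in Emul. The CTRL libraries fell into a lower pair, CTRL 1 and CTRL 3, and a higher pair, CTRL 2 and CTRL 4, whereas the Emul libraries were close together, with Emul 4 the lowest. Counting error was largest in CTRL 3, where 17 counts have an exact Poisson 95% interval of 9.90 to 27.2. The nearest libraries of the groups, CTRL 2 with an interval of 2.26 to 3.30 CPM and Emul 4 with 2.57 to 3.61 CPM, could not be separated at this depth. These intervals cover counting error only.

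Dmrta2 averaged a log2 CPM of 0.66 ± 0.98 (SD, n = 4 CTRL libraries) and of 2.09 ± 0.28 (SD, n = 5 Emul libraries), and the fitted log2 fold change was 1.36 (SE 0.33). Of the 7 genes 1, Dmrta2, lay past a cutoff of a fold change above 1.5 with an unadjusted p under 0.05 in limma-voom, and 0 had an adjusted p under 0.05. Over all 15340 genes, 72 lay past the cutoff (0.469%), 38 of them higher in Emul (0.248%), and 18 (0.117%) had an adjusted p under 0.05. The libraries of the groups did not overlap for 1 of the 7 genes, Dmrta2, and for 1013 of all genes (6.6%), of which 430 (2.8% of all) had Emul above CTRL. As Dmrta2 was chosen on this contrast, these counts describe the choice and are no test of it. Without CTRL 3 its log2 fold change was 0.99, and without CTRL 2 it was 1.63. In the log2 CPM table made by the authors, the difference of the Dmrta2 means was 1.43, and the groups did not overlap there either. In bulk tissue, fewer cells that express a gene and less RNA per cell cannot be told apart. The antisense gene Dmrta2os starts 239 bases upstream and shares 39 bases with the promoter window, but none with the gene; neither it nor Emx2os has a transcript among those quantified.

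Neurod2, Neurod6 and Bhlhe22, the bHLH factors, overlapped between the groups, and CTRL 3 was the lowest library for each. Neurod2, at chr11:98325415-98329648 on the minus strand, had 1.18, 2.12, 0.612 and 2.04 CPM in CTRL and 1.41, 1.97, 2.00, 1.40 and 2.05 CPM in Emul. Both groups held libraries near 2 CPM and libraries well below it, and the highest library was a CTRL one. Its fitted log2 fold change was 0.33 (SE 0.30), and it was 0.018 without CTRL 3, 0.54 without CTRL 2 and 0.53 without CTRL 4. Neurod6, at chr6:55677822-55681263 on the minus strand, had 2.36, 2.47, 1.02 and 2.24 CPM in CTRL and 2.03, 3.27, 2.94, 2.01 and 3.55 CPM in Emul. Emul 2, Emul 3 and Emul 5 lay above all CTRL libraries, and Emul 1 and Emul 4 among them. The log2 fold change of Neurod6 was 0.45 (SE 0.26), and 0.20 without CTRL 3. Bhlhe22, at chr3:18054174-18057517 on the plus strand, had 7.43, 7.79, 4.91 and 8.14 CPM in CTRL and 6.79, 8.21, 8.50, 7.85 and 8.48 CPM in Emul. Its 8 libraries other than CTRL 3 spanned a narrow range, and its log2 fold change was 0.18 (SE 0.13), and 0.049 without CTRL 3.

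Emx2, the homeodomain factor that was measurable, varied little, with a highest TPM 1.68 times its lowest, where Bhlhe22 had 1.66 times and Dmrta2 7.69 times. At chr19:59458372-59465357 on the plus strand, it had 2.41, 2.33, 1.43 and 1.91 CPM in CTRL and 2.23, 2.46, 2.60, 1.69 and 2.80 CPM in Emul. CTRL 3 was again the lowest library, followed by Emul 4. Its log2 fold change was 0.22 (SE 0.19), which was 0.090 without CTRL 3 and 0.35 without Emul 4. Emx2os, on the opposite strand, shares 264 bases with Emx2. The libraries were stranded, but whether the counting used the strand is not given in the sources used here, so reads from the shared stretch cannot be told apart if it did not.

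Emx1, at chr6:85187438-85204462 on the plus strand, was at the limit of detection. It had 5, 0, 5 and 3 counts in CTRL and 4, 7, 3, 7 and 2 counts in Emul. For CTRL 2, the exact 95% interval of 0 counts reaches 3.69 counts, or 0.0904 CPM. Of the Emx1 counts, all of those in CTRL and 77.7% of those in Emul were assigned to a transcript with a retained intron, so the coding transcript had next to none. No difference in Emx1 was detectable at this depth.

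The median log2 fold change of the 6 measurable genes other than Dmrta2 was 0.27, against 0.0015 over all genes tested, and it ranged from 0.11 to 0.42 over the alternatives. CTRL 3 was the lowest library for 5 of the 7 genes, Dmrta2, Emx2, Neurod2, Neurod6 and Bhlhe22, so these differences rest in part on that library. The share of all genes with their lowest value in CTRL 3 was not counted, so this is not shown to be particular to them.

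**Figure D2:**
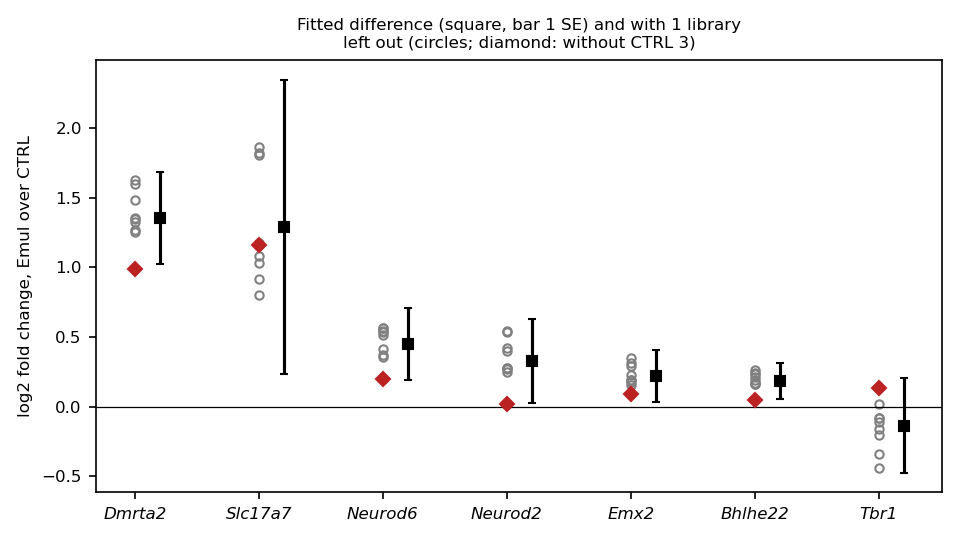
Squares show the fitted log2 fold change of Emul over CTRL for each of the 7 genes tested, with 1 SE as the bar; circles show the values with 1 library left out and the diamond the value without CTRL 3. Dmrta2 stays between 0.99 and 1.63 when 1 library is left out, whereas leaving out CTRL 3 brings Neurod2 to 0.018 and turns Tbr1 to 0.13.

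Within the groups, Dmrta2 and Neurod2 varied together. Both were lowest in CTRL 3, then CTRL 1, CTRL 4 and CTRL 2 among the CTRL libraries. Among the Emul libraries both were lowest in Emul 4, then Emul 1, where Neurod2 was nearly equal at 1.40 and 1.41 CPM. The order of the other Emul libraries differed, with Dmrta2 highest in Emul 2 and Neurod2 in Emul 5. After each group's mean was subtracted, which leaves out the contrast by which Dmrta2 was noticed, their Pearson correlation over the 9 libraries was 0.97, and 0.89 without CTRL 3. Such a correlation describes 9 libraries that share depth and dissection, and no p is given. Of all other tested genes, 217 of 15339 (1.41%) had a correlation with Dmrta2 above 0.8, with a median of -0.00093. Bhlhe22 had 0.84 and Neurod6 0.81, but without CTRL 3 these were 0.36 and 0.43, so both rest largely on that library. Emx2 had 0.66, and 0.26 without CTRL 3. Slc17a7 had 0.33, and 0.41 without CTRL 3. Tbr1 had -0.71, and -0.38 without CTRL 3, so its opposition to Dmrta2 rests largely on that library too.

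The ratio of Dmrta2 to Neurod2 separated the groups, as Dmrta2 alone did and Neurod2 alone did not. On the log2 scale the ratio was 0.14, 0.37, -0.0055 and 0.31 in CTRL and 1.53, 1.37, 1.07, 1.10 and 1.11 in Emul. Its mean over the CTRL libraries was 0.20 ± 0.17 (SD, n = 4), its mean over the Emul libraries was 1.23 ± 0.20 (SD, n = 5), and these differ by 1.03. The spread among CTRL libraries, with an SD of 0.98 in Dmrta2 alone, was 0.17 once Neurod2 was divided out. CTRL 3 was no longer apart in the ratio, but its ratio rests on few counts. Rounded to whole counts, each gene had 17 there, with an exact Poisson interval of 9.90 to 27.2. In CTRL 1, Dmrta2 had 50 counts (interval 37.1 to 65.9) and Neurod2 had 45 (32.8 to 60.2). Counting error was not carried into the ratios. Each of these intervals spans more than 0.17 on the log2 scale, so these counts do not resolve a spread that small. The ratios of Dmrta2 to Emx2, Neurod6 and Bhlhe22 did not overlap between the groups either, with differences of 1.17, 0.92 and 1.21, but those to Tbr1 and Slc17a7 did. The ratio to Slc17a6, which is not one of the 8 genes, did not overlap either, with a difference of 1.13. These ratios hold the Dmrta2 values that drew attention to the gene and are a description. Neurod2 was also singled out by its correlation with Dmrta2 in these same libraries.

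**Figure D3:**
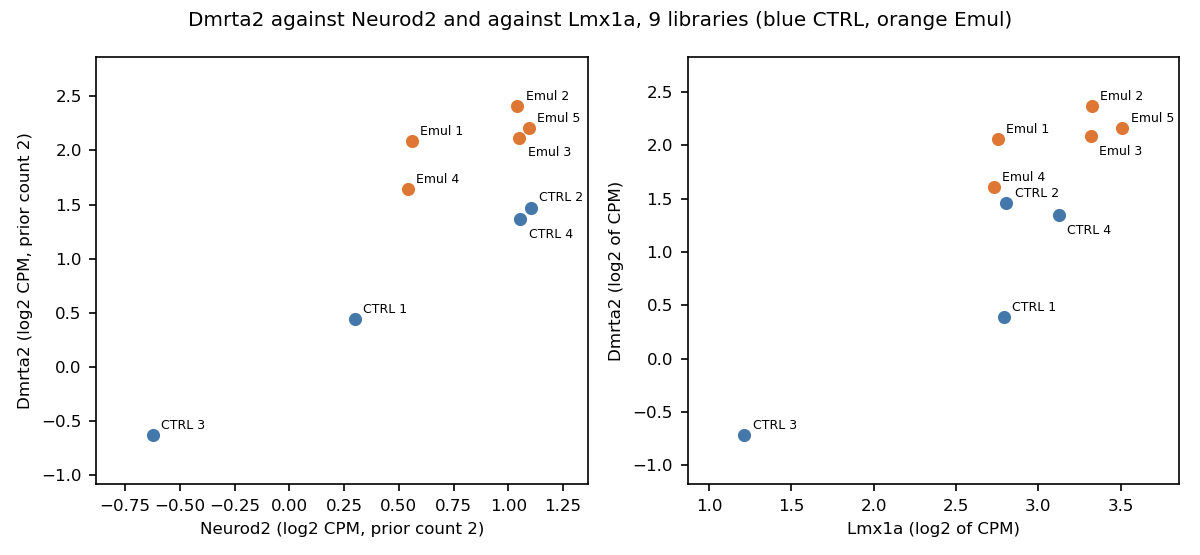
Each point is 1 library, with Dmrta2 on the vertical axis and Neurod2 (left, log2 CPM with a prior count of 2) or Lmx1a (right, log2 of CPM) on the horizontal axis. On the left the CTRL points rise together with Neurod2 from CTRL 3 to CTRL 2 and the Emul points lie above them at like Neurod2. On the right the groups come closer, and on the scale drawn the ratios nearly meet without overlap.

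The 5 genes lowest in CTRL 3 shared that library with genes of other lists. Lmx1a, a LIM homeodomain factor of the cortical hem, the ventral midbrain and the posterior hypothalamus, had 6.93, 6.99, 2.32 and 8.72 CPM in CTRL and 6.76, 10.02, 9.99, 6.64 and 11.4 CPM in Emul. Its group-centred correlation with Dmrta2 was 0.87, and 0.51 without CTRL 3, and its log2 fold change was 0.56 (SE 0.30, limma-voom adjusted p = 0.39). The log2 ratio of Dmrta2 to Lmx1a, with a prior count of 2, overlapped narrowly. It reached -1.33 in the highest CTRL library and -1.34 in the lowest Emul library. In CPM without a prior count the groups came close but did not overlap. Nhlh2, a bHLH factor of hypothalamic neurons, and Slc17a6 were also lowest in CTRL 3, at 9.93 and 262 CPM. Foxb1, Lmx1b, Barhl1, Foxa1 and Irx5, factors known from the mammillary and neighbouring posterior hypothalamus, were looked at after values had been seen. CTRL 3 was the lowest library for 4 of these 5 and the second lowest for Irx5, again without a share over all genes to set beside it. Lmx1b had 2.55 CPM in CTRL 3 and 5.84 to 8.80 CPM in the other libraries, and Foxa1 had 1.79 CPM against 3.96 to 7.10 CPM. None of the 5 passed the cutoff between the groups in limma-voom, with log2 fold changes of 0.078 to 0.40 and adjusted p-values of 0.47 to 0.88. How much of a neighbouring region each dissection held was not measured, and its part in the Dmrta2 values was not tested.

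**Figure D4:**
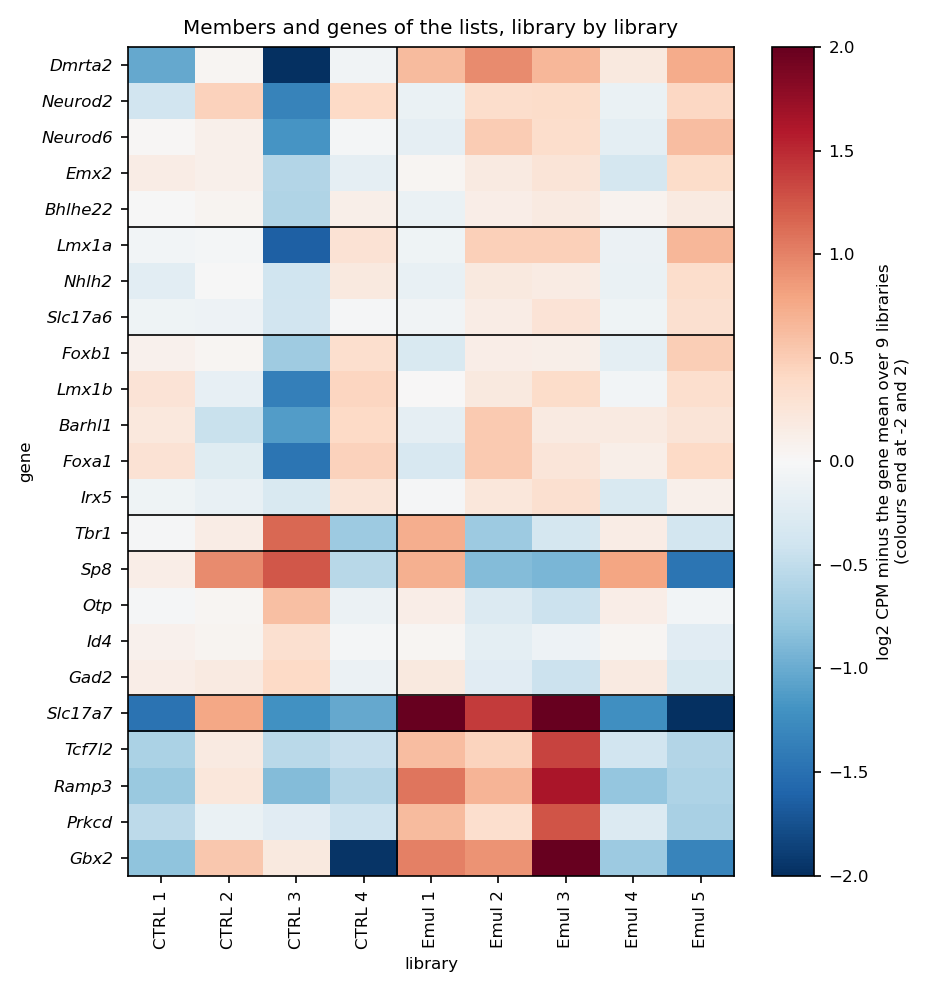
Colours show the log2 CPM of each gene in each library minus its mean over the 9 libraries, clipped at -2 and 2, with the 7 genes tested set above the list genes that resemble them. CTRL 3 is blue for Dmrta2, the bHLH factors, Emx2, Lmx1a and the posterior hypothalamic genes and red for Tbr1, Sp8, Otp, Id4 and Gad2, while Slc17a7 and the thalamic genes are red in Emul 1, Emul 2 and Emul 3.

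Tbr1, the T-box factor, ran in the opposite direction. At chr2:61802930-61814114 on the plus strand, it had 2.17, 2.44, 4.91 and 1.33 CPM in CTRL and 3.65, 1.34, 1.74, 2.45 and 1.72 CPM in Emul. CTRL 3 was the highest library, Emul 1 the next, and CTRL 4 the lowest, so the groups overlapped. The log2 fold change was -0.14 (SE 0.34), and it kept this sign in 17 of 20 alternatives, with 0.13 without CTRL 3, 0.020 without Emul 2 and -0.44 without CTRL 4. After centring by group, the correlation of Tbr1 with Bhlhe22 was -0.89, and -0.87 without CTRL 3, and that with Neurod6 was -0.84, and -0.67 without CTRL 3. The opposition of Tbr1 and Bhlhe22 therefore did not rest on that library. Over all 9 libraries, 57.8% of the Tbr1 counts were assigned to the coding transcript Tbr1-201 and 39.6% to the noncoding Tbr1-203, and with coding transcripts alone the log2 fold change was -0.27. Id4, an inhibitor of bHLH factors, had a centred correlation of 0.93 with Tbr1, Otp, a factor of neuroendocrine neurons, 0.86, Gad2, a GABA-synthesising enzyme, 0.84 and Sp8, a zinc finger factor, 0.83. These 4 were highest in CTRL 3. Otp had 70.4 CPM there against 34.2 to 50.7 CPM in the other libraries. Id4, Otp, Gad2 and Sp8 were singled out after their values had been seen. Pappa2, Appl2, Slf1 and Trmt10c, outside the lists, had centred correlations of 0.95 to 0.98 with Tbr1, above that of Id4.

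Slc17a7 varied far more than the other genes, by 24.5 times in TPM between Emul 5 and Emul 3. At chr7:45163949-45176142 on the plus strand, it had 0.863, 4.12, 1.04 and 1.19 CPM in CTRL and 10.4, 6.32, 15.3, 1.03 and 0.598 CPM in Emul. Emul 1, Emul 2 and Emul 3 were high, CTRL 2 came next, and the remaining 5 libraries, Emul 4 and Emul 5 among them, were near 1 CPM or below. The log2 fold change was 1.29 with an SE of 1.06, and its log2 CPM averaged 0.58 ± 1.00 (SD, n = 4 CTRL libraries) and 1.91 ± 2.03 (SD, n = 5 Emul libraries), so the difference was within the spread of the libraries. It was 0.80 without Emul 3 and up to 1.86, without Emul 5, when another library was left out. Most markers of the thalamic list moved with it. The group-centred correlation with Slc17a7 was 0.98 for Ramp3, a receptor-modifying protein, 0.97 for Tcf7l2, a Wnt effector that marks thalamus, 0.93 for Prkcd, a protein kinase C, and 0.87 for Gbx2, a thalamic homeodomain factor. Of the other 6 genes tested from the list, Calb2, Rora, Plekhg1, Cbln1 and Lef1 had 0.65 to 0.86, and Slc17a6, its most abundant gene, had 0.0019. Adam11 and Grid2ip, outside the lists, had 0.98 with Slc17a7. Tcf7l2 had 49.4, 43.9 and 82.1 CPM in Emul 1, Emul 2 and Emul 3, 36.3 CPM in CTRL 2, and 20.7 to 24.6 CPM in the other 5 libraries. Summed over the 11 thalamic genes the level was 736 to 841 CPM in CTRL and 812 to 1107 CPM in Emul, with the highest sum in Emul 3. In Emul 5, where Slc17a7 was lowest, the sum was 895 CPM, above every CTRL library. Of that sum 429 CPM were Slc17a6, which was at its highest there. Prkcd, in contrast, was at its lowest in Emul 5, with 15.5 CPM, and Tcf7l2 had 21.3 CPM. The 10 thalamic genes tested had log2 fold changes of 0.079 to 0.96 with a median of 0.28, and 0 passed the cutoff. Of the 18 genes of the cortical list, 18 were tested, 0 passed and the median was -0.021, and the sum was 1242 to 1358 CPM in CTRL and 1262 to 1365 CPM in Emul. The part of thalamic tissue in the Slc17a7 values was not tested.

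The relatives of Dmrta2 in the DMRT family gave no call. Dmrta1, its closest relative, had a mean of 2.58 CPM and a log2 fold change of 0.023 (SE 0.22), Dmrtb1 had 2.86 CPM and -0.11 (SE 0.14), and Dmrtc1a had 4.98 CPM and -0.0037 (SE 0.098). Their limma-voom adjusted p-values were 0.97, 0.74 and 0.99. Dmrt1, Dmrt2, Dmrt3 and Dmrtc2 were under the filter, with means of at most 0.016 CPM. All 3 relatives tested overlapped between the groups.

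Genes that work with the 8 in cortical development were also read from the fit. Of 19 cortical patterning genes 13 were tested and 0 passed the cutoff, with a median log2 fold change of 0.043. Sox2, a factor of neural progenitors, was lower in every Emul library, with a log2 fold change of -0.26 (SE 0.055, limma-voom adjusted p = 0.10), where 583 genes (3.8%) had all Emul libraries below all CTRL libraries. Nr2f2, Nr2f1 and Wnt5a, the other abundant genes of that list, had -0.14, 0.077 and 0.043 and overlapped. Of 17 relatives and partners in the bHLH family 13 were tested and 0 passed, with a median of -0.050. Among the 4 most abundant, Tcf12, an E protein that pairs with bHLH factors, was lower in every Emul library, with -0.15 (SE 0.034, limma-voom adjusted p = 0.10), while Olig1, an oligodendrocyte factor, had -0.15, Tcf4, an E protein, -0.041 and Id4, an inhibitor of bHLH factors, -0.16, all with overlap. Of 10 partners and targets, among them Dlg4, Grin2b, Stim1 and Cask, 10 were tested and 0 passed, with a median of 0.069. Of 7 transmitter transporters and enzymes 7 were tested and 0 passed. Slc17a6 had a log2 fold change of 0.29 (SE 0.098, limma-voom adjusted p = 0.19), whereas Gad1, Gad2 and Slc32a1, genes of GABA neurons, had -0.24, -0.23 and -0.27.

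Of the markers of regions and cell types beyond cortex and thalamus, Hcrt alone passed the cutoff. Hcrt, the precursor of orexin, was lower in Emul, with a log2 fold change of -0.70 (SE 0.23, limma-voom adjusted p = 0.19), and 34 of all genes tested (0.222%) were called lower. The call was lost without Emul 3, without Emul 5 and with the replicate block. It belongs to the hypothalamic list, of which 20 of 21 genes were tested, with a median of -0.061 and a summed level of 846 to 928 CPM in CTRL and 647 to 857 CPM in Emul. Much of that sum was Pmch, with 225 to 369 CPM over the 9 libraries, and Hcrt had 36.7 to 111 CPM. Pmch, Sst and Npy, the other abundant peptide genes of that list, had -0.32, -0.010 and 0.28. Of the hippocampal list 7 of 9 genes were tested, with a median of -0.017, of the striatal list 14 of 15, with a median of 0.0036, and 0 passed in either. Pde10a, a phosphodiesterase of striatal neurons, was higher in every Emul library, by 0.17 (SE 0.039, limma-voom adjusted p = 0.10). Of 10 astrocyte genes 10 were tested, with a median of -0.050, and Gfap, the astrocyte filament, was lower in every Emul library, with -0.40 (SE 0.088, limma-voom adjusted p = 0.10). Tanycyte and ependymal genes (11 of 11 tested, median -0.027), choroid plexus genes (3 of 6, median -0.022) and pituitary genes (2 of 7, median -0.082) had 0 calls, and the plexus gene Ttr and the pituitary genes Prl and Gh, which define these tissues, were at or near 0. Over all lists 138 of 166 genes were tested, of which 1 passed the cutoff, 0 had an adjusted p under 0.05 in limma-voom and 24 had an unadjusted p under 0.05, where 15.8% of all genes did. Every Emul library lay above all CTRL libraries for 1 of the 138 and below for 3, against 2.8% and 3.8% of all genes.

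The genes most like Dmrta2 over the libraries were, apart from Neurod2, of other classes. They were Zc3h12a, an RNase, Neurod2, the methyltransferase gene Prmt9, Mtg2, a GTPase of mitochondrial ribosomes, and Tubb4b, a tubulin, with group-centred correlations of 0.95 to 0.97 over 9 libraries. Between the groups Zc3h12a, Prmt9, Mtg2 and Tubb4b had log2 fold changes of -0.11, -0.066, -0.075 and 0.044, none near that of Dmrta2. Most like the mean of the other 6 genes were Car7, a carbonic anhydrase, Rad51c, a DNA repair gene, Pcnx2, Nmt2, a myristoyltransferase, and Ccdc149, with 0.95 to 0.99. That mean followed Slc17a7 most, with a centred correlation of 0.88, against -0.25 for Tbr1 to 0.61 for Emx2 among the others. Car7, Rad51c, Pcnx2, Nmt2 and Ccdc149 had 0.78 to 0.91 with Slc17a7 itself.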

How the data were processed

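RNA of 4 CTRL and 5 Emul MBH samples was made into stranded mRNA libraries and sequenced paired-end. The authors quantified transcripts with kallisto on mm10, and deposited estimated counts and TPM for 119414 transcripts, which are not normalized between libraries, and also a log2 CPM table of 14593 rows (1 without a gene name, not used). The submitters' processing notes name FastQC 0.11.9, kallisto 0.46.1 and edgeR 3.40.1.

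Estimated counts and TPM were summed per gene with GENCODE M21, which matched 97.8% of the transcripts (1.20% to 1.27% of counts were unmatched and left out). All genes exceeding a CPM of 1 in 4 or more libraries were fitted with limma-voom (limma 3.58.1, R 4.3.3) after TMM scaling (edgeR 4.0.16), without covariates, with Benjamini-Hochberg adjustment over all 15340 genes. The cutoff, a fold change above 1.5 with an unadjusted p under 0.05, is one reading of the study's methods, which ask for a p-value under 0.05 without naming an adjustment, while a figure legend of the study names an FDR. Log2 CPM of single libraries used a prior count of 2. Alternatives were edgeR's quasi-likelihood test and DESeq2 1.42.0 on counts rounded to whole numbers, limma-trend, other scalings, filters and gene counts, the authors' table, the replicate number as a block and each library left out. Coding transcripts alone, and the posterior hypothalamic genes, were added after seeing the data.

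The 8 genes and the lists were chosen with earlier results of these data known. Named are the 8 genes, their antisense neighbours, the DMRT family, from each list the genes called and up to 4 of the most abundant, and the 5 genes most like Dmrta2 and the 5 most like the mean of the others; others named were picked after their values were seen. The fits were tested on simulated counts. Single litters set the precision, and counting error adds to it for genes of under 100 counts, as all 8 genes were in some library apart from Bhlhe22. Some genes of the lists are not reported here. No batch is given in the sources used here.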

Additional observations from a re-analysis of the deposited data

Results flagged for a closer look

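In CTRL, 1 library lay far from the other 3 for a pair of the bHLH genes, by the ratio of its gap to the whole range of the group, for which Dixon's 95% critical value with 4 samples is 0.829. Neurod6 had a log2 CPM of 0.069 in CTRL 3 against 1.18 to 1.32 in the others, with a ratio of 0.891. Bhlhe22 had 2.28 in CTRL 3 against 2.90 to 3.02, with a ratio of 0.835. This was asked of 14 sets of libraries, 1 per gene and condition, and chance alone would pick out about 1 in 20 of them, or 0.7. CTRL 3 was also the library with the fewest counts and with the highest Tbr1. Its part in these values was not tested.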

How the results depend on the processing

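The log2 fold change of Dmrta2 was positive under all 21 alternatives, from 0.99 without CTRL 3 to 1.63 without CTRL 2, and it could not be computed with a CPM above 1 required in all 9 libraries, where Emx2, Neurod6, Tbr1 and Bhlhe22 remained. The median of the other genes ranged from 0.11 to 0.42. Slc17a7, at 1.29, had 1.89 in edgeR, 1.93 in DESeq2 and 2.06 with the replicate block. Neurod2, at 0.33, had 0.19 with the block, and Tbr1, at -0.14, had -0.24 in edgeR and -0.27 in DESeq2. The centred correlation with Dmrta2 had a median of 0.73, 0.57 by Spearman and 0.39 without CTRL 3.

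The 72 genes past the cutoff became 688 without a filter, where low counts enter, and 37 with the strict filter, and 48 to 95 with 1 library left out. The 38 higher and 34 lower were 46 and 23 in edgeR, 35 and 22 in DESeq2, 29 and 39 with library size alone, and 52 and 21 with the replicate block. The list genes called, 1 in the reported fit, were 4 in edgeR, 5 in DESeq2, 2 without a filter, 3 in the authors' table, 5 with the replicate block and 0 to 7 with 1 library left out. The 0 came without Emul 3, where the call on Hcrt was lost, and the 7 without Emul 4. Hcrt was also lost without Emul 5 and with the replicate block. They were 3 without CTRL 2, 4 without CTRL 4 and 2 without Emul 5. Those gained most often were Prkcd, Ramp3, Tcf7l2 and Ntng1. The cause was not tested.

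The same replicate number did not pair the libraries: deviations of same-numbered libraries correlated at -0.16, -0.015, 0.021 and -0.055. With the replicate block, Dmrta2 had a log2 fold change of 1.20 and 73 genes passed the cutoff.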
